A study of Mus musculus with 6 samples.

Results

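The probes of mouse chromosome 18 numbered 1212 among the 42404 different probes of the arrays used here, and they were taken by the chromosome and position that the array design gives each probe on mouse genome build mm8. Chromosome 18 was chosen by its low log2 ratio in the epithelia on these same arrays. The epithelial level and the difference between epithelia and stroma on it are therefore a description, and nothing is concluded from them. The fits over all probes include both contrasts, and their counts on chromosome 18 are given below as a description too.

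Array-based comparative genomic hybridization (array-CGH) lets test DNA and reference DNA, labeled with different dyes, compete for the same probes, so that a lower ratio means less test DNA per reference DNA at a probe. Test DNA (Cy3) came from 3 Tgfbr2 fspKO mice with squamous cell carcinoma (SCC) of the forestomach, with 1 array for the epithelia and 1 for the stroma of each mouse, and reference DNA (Cy5) came from normal forestomach epithelia of Tgfbr2 flox/flox mice. The labels give the strain C57Bl/6 for the knockout mice and name none for the reference mice, and sections for laser capture came from knockout mice that were 5 weeks old. In Tgfbr2 fspKO mice the floxed *Tgfbr2* gene, which encodes the type II TGF-β receptor, is deleted by Cre under the FSP1 promoter, thus in FSP1+ stromal fibroblasts and not by design in the epithelia, whereas Tgfbr2 flox/flox mice carry the floxed gene without that deletion.

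Several features limit these groups. Epithelia and stroma were told apart by morphology before laser capture, so each sample may hold some cells of the other kind. The stroma was compared with epithelial reference DNA, and how many of the 3 dissected Tgfbr2 flox/flox mice each reference held is not given in the sources used here. No DNA of a control mouse was used as a test sample, and all 6 arrays had the same dye orientation, so dye and sample cannot be told apart. Mice 1 and 2 shared a slide, and both arrays of mouse 3 were on another. The 3 mice limit the precision of every mean.

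Mouse chromosomes carry their centromere near the end from which positions are counted, called proximal here. Chromosome 18 carries *Smad2* and *Smad4*, which encode intracellular mediators of TGF-β signaling, and *Smad7*, which encodes an inhibitor of it. It also carries *Apc*, a tumor suppressor gene of the Wnt pathway, and the cluster of desmocollin and desmoglein genes, whose cadherins hold the cells of stratified epithelia together.

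The arrays covered chromosome 18 from position 3254025 to 90727455 with a median distance of 29687 bp between neighboring probes, against 21827 bp over the 20 chromosomes measured. The longest stretches without a probe were 17044154 to 20104300, 27836260 to 30436079 and 71543259 to 73699689. Both channels were well above background on all 6 arrays for 907 of the 1212 probes (74.8%), compared with 71.2% of all probes. The 2 shares were close.

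Each value below is the log2 ratio of test over reference minus the array's median over all probes, so that 0 is the typical probe of an array. Sets of 3 values are for mouse 1, mouse 2 and mouse 3, in that order. The mean of the chromosome 18 probes was -0.13, -0.12 and -0.16 in the epithelia. In the stroma it was 0.031, -0.023 and -0.044. The epithelial mean was thus below the stromal mean in every mouse, and the lowest stromal array was above the highest epithelial array.

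Over the 3 mice the epithelial mean was -0.13 ± 0.023 (SD, n = 3), a ratio of 0.911 on the linear scale. The stromal mean was -0.012 ± 0.039 (SD, n = 3), a ratio of 0.992. Within mice, epithelia minus stroma was -0.16, -0.094 and -0.12, with a mean of -0.12 ± 0.033 (SD, n = 3). On the slide of mice 1 and 2 this difference averaged -0.13, and on the slide of mouse 3 it was -0.12, so it had the same sign and a similar size on both slides.

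The stroma was not used to choose chromosome 18, so its level was tested against 0 with limma on the means of 20 chromosomes. The stromal mean of -0.012 had a standard error of 0.027 (adjusted p = 0.962 over 20 chromosomes), with 2 of 3 stromal arrays below 0. It did not pass the threshold of 0.05.

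Among the 20 chromosomes, chromosome 18 had the lowest mean in the epithelia of mice 1 and 3 and ranked 4 from the lowest in those of mouse 2. In the stroma its ranks from the lowest were 10, 9 and 2. It ranked 1 from the lowest by the mean over the 3 epithelial arrays, and 2 by epithelia minus stroma. The next lowest by the epithelial mean were chromosomes 1 and 13. By epithelia minus stroma chromosome 1 was lower, and chromosomes 2 and 13 came after chromosome 18.

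Chromosome 1 (2756 probes) had epithelial means of -0.10, -0.13 and -0.15 and epithelia minus stroma of -0.18, -0.15 and -0.12. Chromosome 13 (1663 probes) had epithelial means of -0.070, -0.14 and -0.10 and differences of -0.11, -0.14 and -0.045. Chromosome 2 had epithelial means of -0.10, -0.030 and -0.10 and differences of -0.17, -0.014 and -0.12. The differences of chromosome 18 overlapped those of all 3, its epithelial means overlapped those of chromosomes 1 and 13 but lay below those of chromosome 2, and no difference between these chromosomes was tested.

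The low level could be followed in the separate dyes, each as log2 signal minus the array's median of that channel. In the test channel, the chromosome 18 probes averaged -0.0081, -0.059 and -0.075 in the epithelia, and 0.10, 0.085 and 0.076 in the stroma. In the reference channel they averaged 0.11, 0.079 and 0.097 on the epithelial arrays, and 0.097, 0.098 and 0.10 on the stromal arrays. The test channel of every epithelial array was below that of every stromal array, whereas the reference channel overlapped between the arrays of the 2 tissues.

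Epithelia minus stroma within mice was -0.11, -0.14 and -0.15 in the test channel (mean -0.14 ± 0.021, SD, n = 3). It was 0.016, -0.019 and -0.0029 in the reference channel (mean -0.0020 ± 0.018, SD, n = 3). These channel values are parts of the ratios that chose the chromosome and are given as a description. The mean difference in the reference channel was smaller than its spread over the mice.

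The chromosome 18 probes of each array were also described by their share below 0 and their median. Below 0 were 59.7%, 57.9% and 65.7% of them in the epithelia, and 50.2%, 50% and 55.7% in the stroma, where 0 is the median of all probes of an array. The medians were -0.13, -0.17 and -0.17 in the epithelia, and -0.0025, -3.79e-05 and -0.054 in the stroma. Every epithelial array was lower than every stromal array by the median, as it was by the mean.

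Percentiles of the chromosome 18 probes were also set against the same percentiles of all probes of the array. In the epithelia the 10th percentile differed by -0.13, -0.066 and -0.13 in turn. The 90th differed by -0.21, -0.21 and -0.19. In the stroma the 10th differed by 0.030, -0.035 and -0.011, and the 90th by -0.026, 0.040 and -0.062. In the epithelia both ends of the distribution were thus lower on all 3 arrays, the upper end by more than the lower end, and in the stroma neither end had 1 sign on all 3 arrays.

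Single probes varied far more than the chromosome mean. The SD over the chromosome 18 probes was 0.521, 0.887 and 0.418 in the epithelia, and 0.547, 0.489 and 0.434 in the stroma. Probes below -1 made up 4.46%, 15.3% and 2.06% of chromosome 18 in the epithelia, against 2.80%, 13% and 1.1% of all probes. Probes above 1 made up 1.57%, 10.6% and 0.578%, against 3.51%, 14.8% and 1.49%. The epithelia of mouse 2 had by far the widest spread on chromosome 18, as they had over all probes (0.941).

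Sign over the arrays was counted for the 1199 chromosome 18 probes measured on all 6. Below 0 in all 3 epithelia were 276 of them (23.0%), compared with 12.5% of all probes. Lower in epithelia than in stroma in all 3 mice were 308 (25.7%), compared with 14.7% of all probes. These counts come from the values that chose the chromosome, and nothing is read from them.

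Below 0 in all 3 stroma were 340 chromosome 18 probes (28.4%), compared with 24.6% of all probes, and 283 (23.6%) were above 0 in all 3, compared with 23.8%. The stromal share below 0 was thus higher than that of all probes, the share above 0 was near it, and neither was tested.

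The level was then followed along chromosome 18 in 25 consecutive windows of 50 probes, numbered from the proximal end, the last holding 12. In the epithelia, 23, 19 and 25 of the 25 windows were below 0 in turn. In the stroma, 7, 14 and 15 were. No share of all windows is given for single arrays, so these counts are a description. In mouse 3 the mean of every epithelial window was below 0, and in mice 1 and 2 some windows stood above it.

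Below 0 in all 3 epithelia were 17 of the 25 windows (68.0%), compared with 15.4% of the 857 windows of the 20 chromosomes, and 0 were above 0 in all 3, compared with 15.8%. Lower in epithelia than in stroma in all 3 mice were 16 (64.0%), compared with 18.1% of all windows, and higher in all 3 mice was 1, compared with 16.9%. Both kinds of window follow from the values that chose the chromosome. In the stroma 6 of 25 windows were below 0 on all 3 arrays (24.0%), compared with 19.8% of all windows, and 6 were above 0 on all 3 (24.0%), compared with 20.2%. With 25 probes per window, 13 of 49 were below 0 in all 3 stroma (26.5%), compared with 20.3% of all such windows, and 10 were above (20.4%), compared with 21.6%. With 100 probes, 6 of 13 were below (46.2%), compared with 18.9%, and 3 were above (23.1%), compared with 18.2%. The share below 0 was near that of all windows with 25 and 50 probes. It stood further above it with 100 probes, where only 13 windows were formed. Windows of all sizes hold the same probes, so the sizes do not repeat each other as evidence. The share above 0 was lower than that of all windows with 25 probes and higher with 50 and 100. These stromal shares were not tested, and nothing is read from them.

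Below 0 in all 3 epithelia and also above 0 in all 3 stroma were 4 of the 25 windows of 50 probes (16%), compared with 1.87% of all windows. This count too follows from the values that chose the chromosome, and nothing is read from it.

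Chromosome 1 had 30 of 56 windows below 0 in all 3 epithelia and 36 lower in epithelia in all 3 mice (53.6% and 64.3%). Chromosome 13 had 15 and 15 of 34 (44.1% each), and chromosome 2 had 21 and 34 of 71 (29.6% and 47.9%). Chromosome 18 ranked 1 of the 20 by the share of windows below 0 in all 3 epithelia and 2 by the share lower in epithelia, without a test.

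The longest run of windows below 0 in all 3 epithelia held 6, windows 3 to 8, from 10707187 to 34968870. The longest run lower in epithelia in all 3 mice held 5, windows 3 to 7. Both runs cross the stretches without a probe from 17044154 to 20104300 and from 27836260 to 30436079. Runs on other chromosomes were not measured. The other windows of these kinds lay along the rest of the chromosome, up to window 24 and window 22, respectively.

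Over the 24 full windows, the SD of the window means was 0.0941, 0.170 and 0.0653 in the epithelia, and 0.116, 0.100 and 0.0812 in the stroma. The standard error of a mean over 50 probes, from the SD of the single probes, was 0.0736, 0.125 and 0.0591 in the epithelia, and 0.0774, 0.0692 and 0.0614 in the stroma. The windows of mouse 3 epithelia thus varied by 1.1 times what their probes give, the lowest of these ratios, and those of mouse 1 stroma by 1.5 times, the highest.

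In 4 consecutive blocks of 303 probes, the epithelia of mouse 1 had means of -0.11, -0.076, -0.13 and -0.19 from proximal to distal. Those of mouse 2 had -0.23, -0.11, -0.10 and -0.023. Those of mouse 3 had -0.17, -0.16, -0.13 and -0.18. The blocks were all below 0 in the epithelia of the 3 mice, but the lowest lay at the distal end in mouse 1 and at the proximal end in mouse 2, and in mouse 3 these end blocks were alike.

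The stromal blocks had means of 0.10, 0.00060, 0.016 and 0.0091 in mouse 1. They had 0.026, -0.048, 0.0011 and -0.071 in mouse 2, and -0.061, -0.048, -0.027 and -0.041 in mouse 3. The epithelia were lower than the stroma in each block of each mouse except the distal block of mouse 2, where the difference was 0.048.

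The window with the lowest epithelial mean was window 4, from 14121286 to 20521660, with -0.21, -0.42 and -0.090 in the epithelia and 0.22, 0.086 and 0.048 in the stroma. It was also the lowest by epithelia minus stroma (-0.36 ± 0.20, SD, n = 3). All epithelia were below 0 and all stroma above it, and mouse 2 was the lowest. This window spans the longest stretch without a probe.

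Window 18, from 62786394 to 65589452, followed with -0.083, -0.34 and -0.25 in the epithelia and -0.00090, -0.10 and -0.10 in the stroma. Window 5, from 20529153 to 22836626, had -0.15, -0.34 and -0.17 in the epithelia and 0.058, 0.020 and -0.045 in the stroma. In both, the epithelia were lower than the stroma in every mouse, although in window 18 the epithelia of mouse 1 stood above the stroma of mice 2 and 3.

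By epithelia minus stroma, windows 14 and 12 came next after window 4. Window 14, from 47053690 to 52880457, had -0.11, -0.36 and -0.12 in the epithelia and 0.19, 0.17 and 0.0035 in the stroma, with a mean difference of -0.32 ± 0.20 (SD, n = 3). Window 12, from 39807348 to 43997943, had -0.053, -0.39 and -0.12 against 0.21, 0.091 and 0.033, with a mean difference of -0.30 ± 0.17 (SD, n = 3). Mouse 2 gave the largest differences in both windows, and mouse 3 the smallest.

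At the other end, the highest windows by epithelial mean were 17, 25 and 10, all near 0. Window 17, from 61068722 to 62738810, had -0.050, 0.19 and -0.11 in the epithelia and -0.020, -0.017 and 0.035 in the stroma. Window 25, the last 12 probes from 89255233 to 90727455, had 0.46, -0.41 and -0.073 against 0.31, 0.091 and 0.0042. The epithelia of mice 1 and 2 lay on opposite sides of 0 in window 25, and the tissues overlapped in both windows.

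Window 10, from 36737743 to 37767171, was the only 1 of the 25 windows that was higher in epithelia than in stroma in all 3 mice. Its epithelia had -0.0063, 0.046 and -0.067, and its stroma -0.22, -0.33 and -0.15, a mean difference of 0.22 ± 0.15 (SD, n = 3). The stroma was low here on all 3 arrays, and the epithelia were near 0. At 1029.4 kb window 10 was the shortest of the 25, so its probes lay closest together.

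Windows 23 and 17 were the next highest by epithelia minus stroma. Window 23, from 77999601 to 82689829, had -0.20, 0.23 and -0.15 in the epithelia and -0.085, -0.12 and -0.032 in the stroma, with a mean difference of 0.039 ± 0.26 (SD, n = 3). Only mouse 2 was higher in the epithelia here.

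Among windows that the rule for naming did not take, window 8, from 32996069 to 34968870, was picked after its values were seen. It held the lowest window of mouse 3 in both tissues, with -0.20, -0.078 and -0.33 in the epithelia and -0.19, -0.12 and -0.26 in the stroma. The tissues overlapped, and their mean difference was -0.017 ± 0.057 (SD, n = 3).

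Probe spacing was compared after the values had been seen. The chromosome 18 probes were split into 4 classes of equal size by the mean distance between neighbors over 10 intervals, with limits at 30.6, 49.2 and 82.5 kb. From the densest to the sparsest class, the epithelia of mouse 2 had means of 0.072, -0.18, -0.18 and -0.17. Those of mouse 1 had -0.14, -0.11, -0.15 and -0.11, and those of mouse 3 had -0.16, -0.16, -0.18 and -0.14. In mice 1 and 3 the epithelial level was similar in all classes, and in mouse 2 the densest class stood above 0.

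The stroma of mouse 1 had -0.072, 0.024, 0.038 and 0.14 in the same classes, that of mouse 2 had -0.082, -0.035, -0.028 and 0.048, and that of mouse 3 had -0.041, -0.046, -0.062 and -0.033. The stroma of mice 1 and 2 was thus higher where probes were sparse, which was not particular to chromosome 18. On the other chromosomes the stroma of mouse 1 had -0.0147, 0.0211, 0.046 and 0.152 in these classes. That of mouse 2 had -0.0686, 0.000781, 0.0119 and 0.0415 there. In the densest class the epithelia averaged -0.075 and the stroma -0.065 over the 3 mice, and in mouse 2 the epithelia were above the stroma there.

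The other chromosomes, split at the same distances, had 0.19, 0.0091, -0.083 and -0.18 in the epithelia of mouse 2. Chromosome 18 minus the other chromosomes within the same class was then -0.11, -0.19, -0.099 and 0.0095 in mouse 2. It was -0.11, -0.11, -0.17 and -0.23 in mouse 1, and -0.17, -0.16, -0.17 and -0.18 in mouse 3. Chromosome 18 was lower than other chromosomes of like spacing in every class in the epithelia of mice 1 and 3, and in all but the sparsest class in mouse 2.

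Weighted over the classes, this difference was -0.16, -0.099 and -0.17 in the epithelia, and -0.019, -0.021 and -0.042 in the stroma. The tissues did not overlap. The part of probe spacing in the profiles along the chromosome was not tested.

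Probes of 60 bases made up 85.8% of chromosome 18 (1040 probes) and 79.4% of the other chromosomes, and the rest were shorter, down to 45 bases. On chromosome 18 the 60-base probes averaged -0.13, -0.14 and -0.17 in the epithelia, and the 172 shorter ones -0.13, 0.051 and -0.11. In the stroma the 60-base probes averaged 0.038, -0.0063 and -0.050, and the shorter ones -0.0096, -0.12 and -0.0083. The sign differed between the lengths in the epithelia of mouse 2 and in the stroma of mouse 1. Within the same length, chromosome 18 minus the other chromosomes was -0.14, -0.14 and -0.17 in the epithelia and -0.0055, -0.011 and -0.044 in the stroma.

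Single probes were tested with limma over all 42404 probes, and an adjusted p under 0.05 was called. In the stroma, 0 of 1212 chromosome 18 probes were called, compared with 0.00472% of all probes (2 probes), and the lowest adjusted p on chromosome 18 was 0.333. At an unadjusted p under 0.05 there were 155 (12.8%), 82 lower and 73 higher, compared with 11.5% of all probes, a share near the background. With the stromal arrays fitted alone, 33 chromosome 18 probes were called (2.72%), 16 higher and 17 lower, compared with 3.24% of all probes, so this share was also near the background.

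In the epithelia limma called 0 chromosome 18 probes, compared with 0.0236% of all probes (10 probes). At an unadjusted p under 0.05, 118 were lower (9.74%), compared with 4.25% of all probes, and 31 were higher (2.56%), compared with 6.42%. For epithelia minus stroma with the mouse as a block, limma called 0, compared with 0.0189% of all probes (8 probes). At an unadjusted p under 0.05, 71 were lower (5.86%), compared with 2.66%, and 32 were higher (2.64%), compared with 4.64%. Both contrasts share the values that chose the chromosome, so nothing is read from these counts.

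The named probes were the 3 lowest and the 3 highest of each tissue by mean, among those with 1 sign on its 3 arrays and a reference signal well above background there. In the epithelia the lowest was A_53_P104596 (20886028 to 20886087), with -1.29, -1.98 and -0.57 in the epithelia and -0.74, -0.36 and -0.0014 in the stroma. A_53_P165413 (15756680 to 15756739) had -0.58, -2.68 and -0.48 against 0.44, 0.34 and -0.15. A_53_P154985 (64789772 to 64789831) had -0.11, -2.27 and -1.31 against -0.28, -0.22 and -0.72. Mouse 2 was lowest at all 3, which lie in windows 5, 4 and 18, and the test signal of A_53_P165413 was well above background in 2 of 3 epithelia.

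The highest epithelial probes were A_53_P117859 (78304243 to 78304302), with 0.34, 1.57 and 1.17 in the epithelia and -0.43, -0.51 and 0.21 in the stroma, and A_53_P156312 (38376735 to 38376794), with 0.89, 1.44 and 0.62 against 1.43, -0.037 and 0.52. A_53_P117986 (80417312 to 80417367) followed with 1.23, 0.99 and 0.35, and with 0.46 and 0.67 in the stroma of mice 1 and 2. Its spot in the stroma of mouse 3 was an outlier and was left out. Only at A_53_P117859 were all epithelia above all stroma.

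In the stroma the lowest probes were A_53_P131011 (62303159 to 62303218), with -1.71, -0.98 and -0.95 in the stroma and -0.49, -0.75 and -0.79 in the epithelia, and A_53_P102509 (57356807 to 57356866), with -1.33, -1.41 and -0.87 against 0.78, -0.20 and 0.43. A_53_P128338 (38061957 to 38062016) had -1.28, -0.99 and -1.32 against 0.40, 0.35 and -0.74. The stroma was below the epithelia at these probes on all arrays. Their adjusted p in the stroma was 0.333 each by limma, so none passed the threshold.

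The highest stromal probes were A_53_P170166 (12293911 to 12293970), with 1.52, 3.15 and 0.27 in the stroma and -0.058, -0.18 and 0.014 in the epithelia, and A_53_P176927 (62538872 to 62538927), with 1.79, 0.98 and 1.11 against 0.12, 1.11 and 0.65. A_53_P110877 (12979006 to 12979065) had 1.49, 1.62 and 0.60 against 0.024, 0.55 and 0.12. Their adjusted p in the stroma was also 0.333 each by limma. A_53_P176927 and A_53_P131011 are in the same window, 17, and had opposite signs in the stroma.

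The array files pair no probe of chromosome 18 with a gene, while the gene table at hand is of a later build (GRCm38.p6), so no probe value is given for a gene. All 28 genes listed for this chromosome were found on it in that table, which holds 510 protein-coding genes there. From the proximal end, the table places *Zeb1*, a transcriptional repressor of *E-cadherin*, before the kinase gene *Rock1*, the transcription factor gene *Gata6* and *Cdh2*, which encodes N-cadherin. The desmocollin genes *Dsc3*, *Dsc2* and *Dsc1* and the desmoglein genes *Dsg1a*, *Dsg3* and *Dsg2* follow, then *Apc*, *Egr1* and *Ctnna1*, which encodes α-catenin. Further along are *Hbegf* and *Fgf1*, which encode growth factors, and *Pdgfrb* and *Csf1r*, which encode receptor kinases of fibroblasts and macrophages. Toward the distal end lie *Dcc*, *Smad4*, *Smad7* and *Smad2*, in that order.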

How the data were processed

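The deposited intensity values were signals of both channels from the authors' Feature Extraction run (10.7.1.1), with the background subtracted and the dyes scaled linearly. The deposited log10 ratios (reference over test), equal to the series table, served as an alternative. Spots marked as outliers were left out. The log2 ratio of processed test over reference signal was averaged over the spots of a probe (1230 spots for 1212 chromosome 18 probes) and centered on the array median. Windows held 50 probes.

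Models were fitted with limma 3.58.1 in R 4.3.3, with 1 spread over 6 arrays and Benjamini-Hochberg adjustment. Summaries used Python 3.11.15. Epithelia and stroma of a mouse came from 1 animal by their labels, so the mouse was a block for their difference. Their deviations from the tissue means correlated at 0.0776, -0.0232 and 0.103 across probes. The derivative log ratio spread, a measure of noise, was 0.469, 0.835 and 0.395 for the epithelial arrays and 0.488, 0.396 and 0.419 for the stromal arrays.

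The named probes were those called (none), plus 3 lowest and 3 highest per tissue. The named windows were 3 lowest and 3 highest by epithelial mean and by difference. The chromosome, lists and rules were chosen with earlier results of these data known. Matching on spacing and length was chosen after seeing the data.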

Additional observations from a re-analysis of the deposited data

Results flagged for a closer look

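In 4 of the 25 windows of chromosome 18, all 3 epithelia were below 0 and all 3 stroma above 0. That is 16% of its windows, compared with 1.87% of all windows. Window 4 had a mean difference between epithelia and stroma of -0.36, window 12 of -0.30 and window 14 of -0.32, with the values per array given above. Window 11, from 37880916 to 39699169, had -0.20, -0.047 and -0.091 in the epithelia and 0.043, 0.035 and 0.067 in the stroma, a mean difference of -0.16. The difference between the tissues was not tested in these windows, since the chromosome was chosen by its low epithelial level, and nothing is read from their number. Windows 4, 12 and 14 spanned 6400.4, 4190.6 and 5826.8 kb, and window 11 spanned 1818.3 kb. On the other chromosomes, the sparsest class of probes had 0.125, -0.182 and 0.0388 in the epithelia. In the stroma that class had 0.152, 0.0415 and -0.0036. The part of probe spacing in these windows was not tested.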

How the results depend on the processing

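The epithelial mean of chromosome 18 (-0.13) stayed below 0 in all 12 alternatives, between -0.16 and -0.11, and epithelia minus stroma (-0.12) in every alternative that could move it, between -0.14 and -0.092. Among these, matching on probe spacing (-0.14 and -0.11) or length (-0.15 and -0.13) was chosen after seeing the data. Without the replicate block, or with the slide as a block, the mean difference is -0.12 by construction, since the arrays are balanced, and limma called 0 chromosome 18 probes with either. Leaving out each mouse gave -0.14 to -0.12 in the epithelia and -0.14 to -0.10 for the difference. The stromal mean (-0.012) went from -0.034 to 0.0043 with each mouse left out, turning positive without mouse 3, and its adjusted p by limma was between 0.891 and 0.996 in 11 alternatives. Matching was not among these 11. Matched on spacing or length, chromosome 18 minus the other chromosomes averaged -0.027 and -0.020 in the stroma. It was below 0 on each stromal array with either matching, and was not tested.

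Of the window counts, those lower in epithelia in all mice came to 28 of 49 with 25 probes per window and 10 of 13 with 100 (57.1% and 76.9%, compared with 16.9% and 17.7% of all such windows). Those below 0 in all 3 epithelia came to 26 and 9 (53.1% and 69.2%, compared with 14.6% and 18%). With dim probes left out fewer windows were formed, and the counts were 9 and 12 of 19 (47.4% and 63.2%, compared with 19.2% and 18.1%). With 1 mouse left out, a criterion over 2 mice that more windows meet, windows below 0 were 17 to 23 of 25, compared with 20.1% to 35.1% of all windows, and those lower in epithelia 16 to 22, compared with 20.8% to 36.1%. The highest counts, 23 and 22, were without mouse 2 (92% and 88%, compared with 35.1% and 36.1%). In the stromal arrays fitted alone, limma called 33 chromosome 18 probes (2.72%, compared with 3.24% of all probes), against 0 in the other 6 alternatives for the stroma. Over all probes, the count for epithelia minus stroma was 66, 16 and 6 without mice 1, 2 and 3, and 0 with the slide as a block, and none of these probes was on chromosome 18.

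The reference signal was well above background at as few as 81.2% of the chromosome 18 spots of an array (mouse 1 stroma), which limits the precision. Over all spots of that array the share was 77.9%, so this limit was not particular to chromosome 18.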
